A study of Mus musculus with 11 samples.

Results

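The 10 genes described here are factors and target genes of the Hippo-YAP pathway, chosen by symbol: the coactivators Yap1 and Wwtr1 (which encodes TAZ), the DNA-binding partners Tead1, Tead2 and Tead3, and the target or feedback genes Ccn1, Ccn2, Amotl2, Lats2 and Ajuba. All 10 were found among 53453 gene rows of a table of transcript levels, with Ccn1 and Ccn2 also known as Cyr61 and Ctgf. RNA was sequenced from primary neurospheres, free-floating clusters of neural stem and progenitor cells, from embryonic mouse brain at E15.5. There were 5 libraries from embryos with Klf5 overexpression and 6 from control embryos labelled as having no treatment. Klf5 is a zinc finger transcription factor of the Krüppel-like family; the sources used here do not give the promoter or vector behind its overexpression, the mouse strain or the cells targeted. Values are TPM, a transcript abundance corrected for gene length and for the total of each library.

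In the Hippo pathway, the kinases encoded by Stk3 and Stk4 activate the kinases encoded by Lats1 and Lats2. These phosphorylate YAP and TAZ and keep them out of the nucleus. When the kinases are inactive, YAP and TAZ enter the nucleus and bind TEAD proteins, through which they switch on genes such as Ccn1, Ccn2 and Amotl2. The activity of YAP and TAZ is set largely by phosphorylation and location, which transcript levels do not measure. In the developing brain YAP is known as a promoter of neural progenitor proliferation, and in human breast cancer cells YAP binds KLF5 and slows its breakdown.

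Klf5 stood at 53.6 to 93.0 TPM in the 5 overexpression libraries and at 0.371 to 1.29 TPM in the 6 control libraries, which fits the labels. The listed rows of the libraries summed to 730832 to 821967 TPM with overexpression and to 814208 to 846780 TPM in controls. Ribosomal RNA-like rows took 12.4 to 30.2% of that sum with overexpression and 19.3 to 31.2% in controls. Sequencing depth is unknown because TPM does not keep it. All 10 neural stem and progenitor markers were tested. Vim rose (limma adjusted p = 0.0365), Slc1a3 (limma adjusted p = 0.00892) and Msi1 (limma adjusted p = 0.0433) fell, and the other 7 did not pass. These calls come from a single fit and were not followed under other settings. Across all tested genes 3.72% passed. Of the 10 markers 2 had a log2 fold change above 0 and 8 below 0, with a median of -0.36. In limma 6 of the 10 had an unadjusted p under 0.05. The summed level of the 10 was 3720 to 5730 TPM with overexpression and 4790 to 7900 TPM in controls. Fabp7 alone had 1420 to 2660 TPM with overexpression and 2480 to 5410 TPM in controls (limma adjusted p = 0.069). Markers of other cell types were low: the sums reached at most 0.728 TPM with overexpression and 1.45 TPM in controls for 8 endothelial genes, and 1.99 TPM with overexpression and 1.02 TPM in controls for 8 microglia and macrophage genes, of which Aif1, Cx3cr1 and Fcrls were at 0 in all 11 libraries. Ependymal and choroid plexus genes summed to 3.96 to 7.96 TPM with overexpression and 5.66 to 9.62 TPM in controls, with Ttr and Tmem212 at 0 throughout; Foxj1, the 1 tested, did not pass (limma adjusted p = 0.2).

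Among the 10 genes, 1 differed past the threshold between the groups. Ccn1 fell with Klf5 overexpression, while the coactivators and the TEAD genes did not pass the test. A test needed 1 TPM or more in 5 or more libraries, which 13549 genes met, 9 of them members, and of these 0 rose and 1 fell at an adjusted p under 0.05 (limma on log2(TPM + 1), Benjamini-Hochberg adjustment over all tested genes). Across all tested genes, 3.72% passed, with 2.29% higher and 1.43% lower. The median log2 fold change was 0.08 over the 9 tested members and -0.04 over all tested genes. Ccn2 was the member below the level needed for testing. Groups did not overlap in TPM for 1 of the 9 tested members, Ccn1, against 3.29% of all tested genes.

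**Figure D1:**
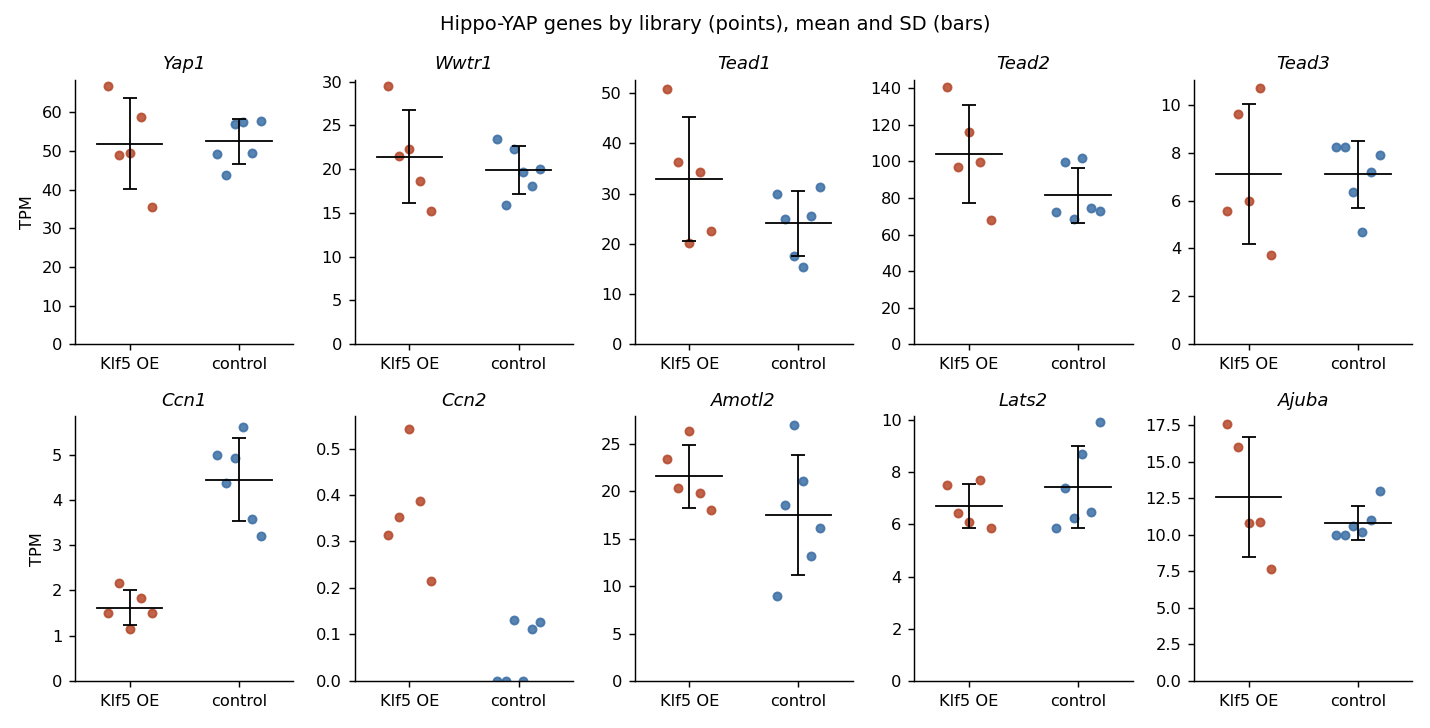
TPM of the 10 Hippo-YAP genes in each library, with Klf5 overexpression (OE, n = 5) left of control (n = 6) in each panel; lines are the mean and bars the SD, left out for Ccn2, which was at 0 in 3 control libraries. Ccn1 lies at 1.14 to 2.16 TPM with overexpression, below all control libraries, while Yap1 and Wwtr1 overlap between the groups.

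**Figure D2:**
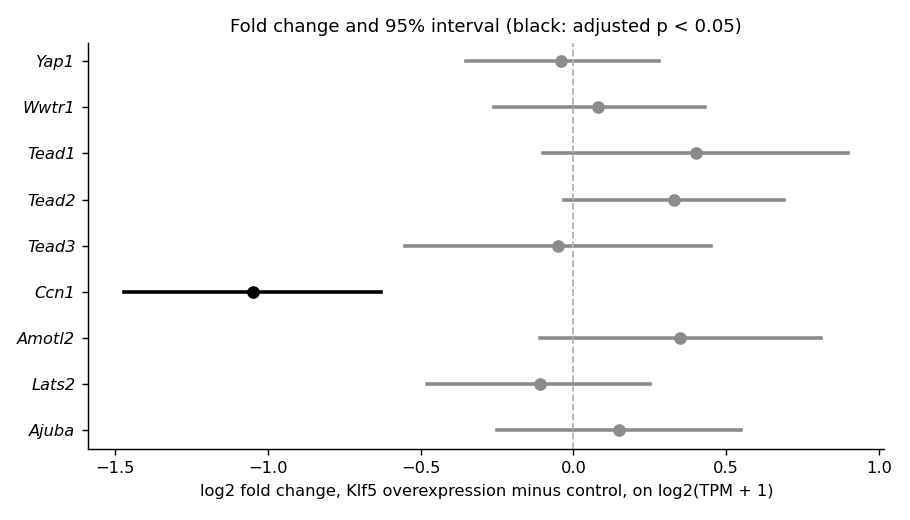
Log2 fold change of the 9 tested members, Klf5 overexpression minus control on the log2(TPM + 1) scale, with the 95% interval from limma. Ccn1 alone (black) has an adjusted p under 0.05, and the intervals of the other 8 genes (grey) include 0.

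Ccn1 (ENSMUSG00000028195, chromosome 3, 145646976 to 145649981, minus strand, GRCm38) encodes a secreted matricellular protein that binds integrins and is a widely used readout of YAP and TAZ activity. Its level was 1.49, 2.16, 1.14, 1.83 and 1.49 TPM in the 5 overexpression libraries. In the 6 control libraries it was 4.99, 4.37, 4.93, 5.62, 3.58 and 3.21 TPM. Every overexpression library lay below every control library. Ccn1 averaged 1.62 ± 0.388 TPM in the overexpression libraries (SD, n = 5), 2.74-fold lower than the 4.45 ± 0.912 TPM of controls (SD, n = 6). On the log2(TPM + 1) scale it changed by -1.05 ± 0.20 (SE; 95% interval -1.47 to -0.63; limma adjusted p = 0.00514). With each library left out the adjusted p was 0.00557 to 0.0174, and in no such fit was the call lost. In bulk RNA, fewer cells with a transcript and less of it per cell cannot be told apart.

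Ccn1 is also made by mural and fibroblast-like cells. Of 10 markers of those cells 3 could be tested. The myosin light chain gene Myl9 had 0 to 0.936 TPM with overexpression and 0.978 to 6.14 TPM in controls (limma adjusted p = 0.0454), and it was tested only because of its level in controls. The other tested markers, Acta2 and Tagln, did not pass and differed in sign. Acta2 had a log2 fold change of -0.46 (limma adjusted p = 0.678) and Tagln of 0.10 (limma adjusted p = 0.973). The summed level of the 10 markers was 3.12 to 7.02 TPM with overexpression and 2.68 to 14.3 TPM in controls. Of the untested markers, Dcn and Lum, which define fibroblasts, were at 0 in all 11 libraries. The pericyte marker Rgs5 did not exceed 0.222 TPM in any library. Others were detected: Col1a1 reached 1.48 TPM with overexpression and 0.422 TPM in controls. Pdgfrb reached 0.394 TPM with overexpression and 0.076 TPM in controls, and Col3a1 0.158 TPM with overexpression and 0.0367 TPM in controls. Col1a2 went the other way, reaching 0.0963 TPM with overexpression and 0.261 TPM in controls. The part of these markers in the Ccn1 result was not tested.

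Ccn2 (ENSMUSG00000019997, chromosome 10, 24595442 to 24598683, plus strand), the connective tissue growth factor gene and the other classic readout of the pathway, was close to absent. It was listed at 0.313, 0.352, 0.542, 0.388 and 0.214 TPM with overexpression and at 0, 0, 0.132, 0, 0.111 and 0.126 TPM in controls. All overexpression libraries lay above all controls, in the direction opposite to Ccn1. The mean of log2(TPM + 1) was 0.44 with overexpression and 0.08 in controls, with an exact two-sided permutation p of 0.00216, unadjusted and the smallest that these group sizes allow. Without a filter on low values, limma gave it an adjusted p of 0.0257. Since no library reached 1 TPM, no fold is given. An antisense gene, Gm15270, overlaps Ccn2 and reached 0.422 TPM, and the sources used here do not say how strand was treated in the quantification.

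The other 4 genes of the CCN family were listed at 0 or at most 0.524 TPM in every library. They include Ccn3, a regulator of neural and mesenchymal differentiation, at 0 in all control libraries and at 0 to 0.262 TPM with overexpression. Over the family, Ccn1 was thus the gene with the highest level in each group.

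Amotl2 (ENSMUSG00000032531, chromosome 9, 102716672 to 102733418, plus strand) encodes angiomotin-like 2, a junctional protein that binds YAP and holds it in the cytoplasm, and it is itself a YAP and TAZ target. It stood at 23.4, 20.4, 26.4, 19.8 and 18.0 TPM with overexpression and at 9.00, 18.6, 27.0, 21.1, 13.2 and 16.1 TPM in controls. All 5 overexpression libraries lay above the control mean of 17.5 TPM, but the control libraries spread over a wider range that covers them all. Amotl2 had a log2 fold change of 0.35, interval -0.11 to 0.81 (limma adjusted p = 0.61).

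Lats2 (ENSMUSG00000021959, chromosome 14, 57689662 to 57758388, minus strand), a kinase that inhibits YAP and TAZ and a feedback target of theirs, had 5.86 to 7.71 TPM with overexpression (median 6.42) and 5.87 to 9.93 TPM in controls (median 6.94). The groups overlapped, with a log2 fold change of -0.11 and an interval of -0.48 to 0.25. The Lats2 row is uncertain, because the protein-coding gene Gm49361 lies over it on the same strand and had up to 9.68 TPM of its own. Lats1, its close relative, was more abundant: the ratio of Lats2 to Lats1 in TPM was 0.308 to 0.416 with overexpression and 0.296 to 0.487 in controls.

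Ajuba (ENSMUSG00000022178, chromosome 14, 54567472 to 54577558, minus strand) encodes a LIM-domain scaffold that restrains the LATS kinases at cell junctions. It had 17.6, 16.0, 10.8, 10.9 and 7.66 TPM with overexpression and 10.0, 9.99, 10.6, 10.2, 11.0 and 13.0 TPM in controls. Of the overexpression libraries, 2 lay above the control range, 2 inside it and 1 below it, and their coefficient of variation was 32.4%, against 10.6% in controls. Its log2 fold change was 0.15 with an interval of -0.25 to 0.55 (limma adjusted p = 0.873).

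The promoters of these 4 target and feedback genes are shown because each holds the short core of the TEAD binding site. A window of 250 bases before to 50 after the RefSeq start (GRCm38.p6) was searched for GGAATG on both strands, where the opposite strand reads CATTCC. For Ccn1 the window was chr3:145649936-145650235 (minus strand), for Amotl2 chr9:102717554-102717853 (plus strand), for Lats2 chr14:57746074-57746373 (minus strand, the first of 2 windows) and for Ajuba chr14:54577612-54577911 (minus strand). Sequences are 5′ to 3′ on the gene's strand, and capitals mark the motif.
Ccn1: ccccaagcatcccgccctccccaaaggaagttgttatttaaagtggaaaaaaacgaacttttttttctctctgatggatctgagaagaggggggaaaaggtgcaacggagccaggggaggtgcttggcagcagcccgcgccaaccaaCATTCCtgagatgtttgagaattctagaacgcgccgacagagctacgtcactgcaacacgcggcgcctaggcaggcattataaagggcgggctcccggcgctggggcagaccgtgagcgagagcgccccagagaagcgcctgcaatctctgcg
Amotl2: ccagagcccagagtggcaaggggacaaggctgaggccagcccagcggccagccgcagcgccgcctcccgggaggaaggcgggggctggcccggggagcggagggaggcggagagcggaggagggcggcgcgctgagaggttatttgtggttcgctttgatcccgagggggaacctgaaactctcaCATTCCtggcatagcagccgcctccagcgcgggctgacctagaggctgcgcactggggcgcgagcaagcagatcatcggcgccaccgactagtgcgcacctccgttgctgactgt
Lats2: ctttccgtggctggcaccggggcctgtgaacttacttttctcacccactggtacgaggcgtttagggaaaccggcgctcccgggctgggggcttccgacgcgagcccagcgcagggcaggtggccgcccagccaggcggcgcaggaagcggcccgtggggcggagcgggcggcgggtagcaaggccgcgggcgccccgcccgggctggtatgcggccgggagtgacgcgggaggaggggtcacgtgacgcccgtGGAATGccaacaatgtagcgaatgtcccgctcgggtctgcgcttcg
Ajuba: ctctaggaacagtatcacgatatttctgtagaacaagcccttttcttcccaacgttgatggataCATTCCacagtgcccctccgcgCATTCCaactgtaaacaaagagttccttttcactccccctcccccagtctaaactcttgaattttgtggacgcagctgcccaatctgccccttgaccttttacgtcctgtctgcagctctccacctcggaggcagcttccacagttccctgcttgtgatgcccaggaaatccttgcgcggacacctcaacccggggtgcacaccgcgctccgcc

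In these windows the motif began at position -103 from the start in Ccn1, at -65 in Amotl2, at 5 in Lats2 and at -186 and -164 in Ajuba. Windows were found for 8 of the 10 members; there was none for Tead1 and Ccn2. The first window of 7 of these 8 genes held the motif, which was found in 14.7% of all 27025 first windows. The exception was Tead2. So Ccn1, which fell, and Amotl2, Lats2 and Ajuba, which did not pass the test, share this element. The letters CCCCNCCC on either strand, which cover common KLF and SP sites, stood in the first window of 5 of the 8 genes (Wwtr1, Tead2, Tead3, Lats2 and Ajuba) and in 33.0% of all first windows. Overlapping matches were counted separately. Neither Ccn1 nor Amotl2 had these letters in the window searched. A match describes the letters and is not a measured binding site.

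The coactivators did not pass the test. Yap1 (ENSMUSG00000053110, chromosome 9, 7931999 to 8004596, minus strand) stood at 66.9, 49.1, 49.4, 58.7 and 35.6 TPM with overexpression and at 49.3, 43.9, 57.0, 57.6, 49.5 and 57.7 TPM in controls. The overexpression libraries spread wider than the controls, reaching both above and below them. The means were 51.9 ± 11.7 TPM with overexpression (SD, n = 5) and 52.5 ± 5.75 TPM in controls (SD, n = 6), and the log2 fold change was -0.04 with a 95% interval of -0.35 to 0.28 (limma adjusted p = 0.976). The sign of so small a value turned with scaling.

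Wwtr1 (ENSMUSG00000027803, chromosome 3, 57455649 to 57575910, minus strand) had 29.5, 21.5, 22.3, 18.6 and 15.2 TPM with overexpression and 23.4, 15.9, 22.3, 19.7, 18.1 and 20.0 TPM in controls. The overexpression range again took in the whole control range. The estimated log2 fold change was 0.08 with an interval of -0.26 to 0.43 (limma adjusted p = 0.935). In every library Yap1 was more abundant than Wwtr1, with a Wwtr1 to Yap1 ratio in TPM of 0.318 to 0.452 with overexpression and 0.342 to 0.474 in controls. By level, Yap1 stood at percentile 83.6 of tested genes with overexpression and 83.4 in controls, and Wwtr1 at percentile 61.7 with overexpression and 59.1 in controls.

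Tead2 was the most abundant of the 10 genes in each group. Tead2 (ENSMUSG00000030796, chromosome 7, 45215753 to 45233644, plus strand), the TEAD gene known for expression in the early embryo and neural progenitors, had 141, 97.1, 116, 99.5 and 67.9 TPM with overexpression. In controls it had 72.4, 99.6, 68.4, 102, 74.3 and 72.8 TPM. Most overexpression libraries lay above most controls, but 1 overexpression library was the lowest of the 11. For Tead2 the log2 fold change was 0.33 with an interval of -0.03 to 0.69 (limma adjusted p = 0.469).

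Tead1 (ENSMUSG00000055320, chromosome 7, 112679318 to 112906807, plus strand), a broadly expressed TEAD that is also important in heart muscle, had 50.9, 36.2, 20.1, 34.4 and 22.5 TPM with overexpression and 29.9, 25.0, 17.5, 15.3, 25.6 and 31.3 TPM in controls. In 3 of 5 overexpression libraries the level was above all controls, and the other two lay inside their range. For Tead1 the log2 fold change was 0.40 with an interval of -0.10 to 0.90 (limma adjusted p = 0.57), so a rise of almost 1 on the log2 scale was not resolved from none with these libraries. Tead3 (ENSMUSG00000002249, chromosome 17, 28331671 to 28350817, minus strand), a TEAD family member known from placenta, had 3.72 to 10.7 TPM with overexpression (median 6.00) and 4.67 to 8.24 TPM in controls (median 7.55). Its log2 fold change was -0.05 with an interval of -0.55 to 0.45, and its sign turned in some of the other fits.

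Tead4, the family member that starts the trophectoderm lineage in the early mouse embryo, is not one of the 10 genes but completes the family. It was listed at 1.22, 1.25, 0.943, 1.22 and 0.467 TPM with overexpression and at 0, 0.107, 0.171, 0, 0.0849 and 0.201 TPM in controls. The groups did not overlap. At this level it was below the testing threshold; its exact two-sided permutation p was 0.00216, unadjusted and the smallest possible, and limma without a filter on low values gave an adjusted p of 0.00475. Tead4 remained a small part of the family, at 0.494 to 0.865% of the summed TEAD TPM with overexpression and 0 to 0.185% in controls.

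**Figure D3:**
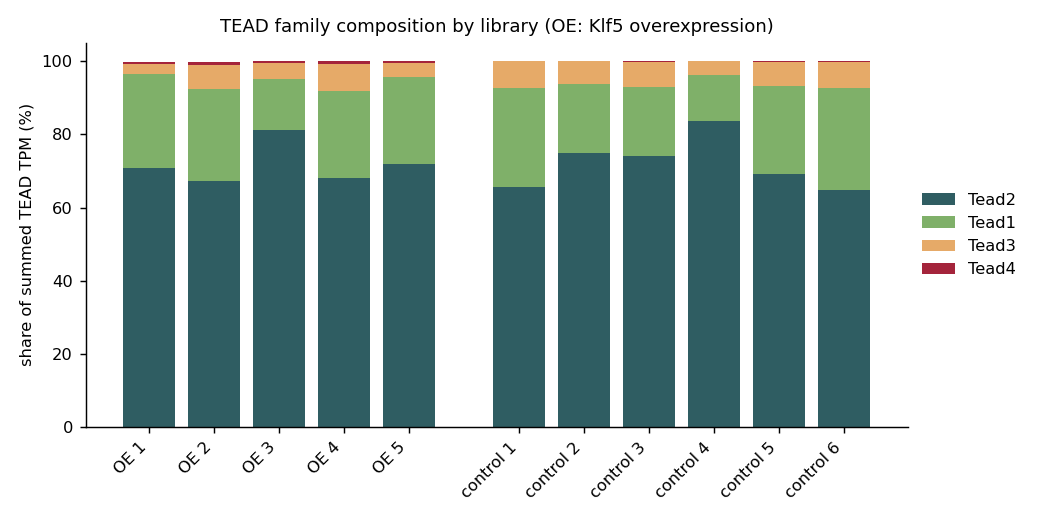
Share of the summed TPM of Tead1 to Tead4 taken by each gene, in percent, for each Klf5 overexpression library (OE, n = 5) and each control library (n = 6). Tead2 takes 67.3 to 81.1% with overexpression and 64.9 to 83.6% in controls, and Tead4 is a thin sliver seen mainly with overexpression.

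The shares of Tead1, Tead2 and Tead3 overlapped between the groups, unlike that of Tead4. Tead2 took 71.9 ± 5.49% (SD, n = 5) of TEAD transcripts with overexpression and 72.1 ± 7.04% (SD, n = 6) in controls, and Tead1 took 22.4 ± 4.74% with overexpression and 21.6 ± 5.84% in controls. Tead3 took 5.00 ± 1.94% with overexpression and 6.35 ± 1.30% in controls. The summed TEAD level was 94.6 to 199 TPM with overexpression and 92.5 to 133 TPM in controls. These shares and sums are given without a test.

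The order of the 10 genes by mean TPM was nearly the same in each group. With overexpression it ran Tead2, Yap1, Tead1, Amotl2, Wwtr1, Ajuba, Tead3, Lats2, Ccn1 and Ccn2. In controls Wwtr1 stood above Amotl2 and Lats2 above Tead3. These neighbours did not separate: Amotl2 was above Wwtr1 in 3 of 5 overexpression libraries and Wwtr1 above Amotl2 in 3 of 6 controls. Tead3 was above Lats2 in 2 of 5 overexpression libraries, and Lats2 above Tead3 in 2 of 6 controls. Tead2 exceeded Yap1, and Yap1 exceeded Tead1, in each of the 11 libraries. Ccn1 went to percentile 7.31 of tested genes with overexpression, against 22.4 in controls.

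Within groups the members varied together only weakly. Among the 5 overexpression libraries, library 1 was the highest for 5 of 9 tested members and library 5 the lowest for 7 of 9. In controls no library was the lowest for more than 3 members, and library 6 was the highest for 4. Overexpression libraries 1 and 5 also stood at the ends of a trimmed-mean scale over all genes, at 0.20 and -0.28 on the log2 scale, and library 5 had the lowest TPM total. Of 36 pairs of tested members, 32 had a Pearson r above 0 after group means were removed (n = 11), and 26 after that scaling, with a median r of 0.25 before it and 0.1 after it. The pair with the smallest p was Yap1 and Wwtr1, with r of 0.746 (exact permutation p = 0.0344, adjusted 0.45) and Spearman rho of 0.418 (exact permutation p = 0.248, adjusted 0.811). Without overexpression libraries 1 and 5 r was 0.241, so it rested on those libraries. No pair passed adjustment over the 36 in an exact permutation test within groups, and 3 had an unadjusted p under 0.05. Yap1 and Lats2 had r of 0.545 (exact permutation p = 0.0442, adjusted 0.45) and rho of 0.645 (p = 0.029, adjusted 0.681). Their r was 0.017 after the trimmed-mean scaling, while that of Yap1 and Wwtr1 was 0.633. Tead1 and Ajuba had r of 0.674 (exact permutation p = 0.0491, adjusted 0.45), rho of 0.673 (p = 0.0567, adjusted 0.681), and r of 0.76 without the farthest libraries. After the trimmed-mean scaling r of Tead1 and Ajuba was 0.67.

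Beyond the 10 members, 66 other pathway genes were listed from textbook pathway maps and a published YAP/TAZ signature, and 45 could be tested. Of these, 3 rose and 2 fell, 11.1% of those tested, against 3.72% of all tested genes, with a median log2 fold change of 0.03 against -0.04. The 3 that rose include Vgll2, which was tested only because of the group in which it is high. The lists were also chosen with earlier results of these data known, so the 2 shares are no test of the pathway. Groups did not overlap for 5 of the 45, against 3.29% of all tested genes. The genes that passed were Wwc1, Crim1 and Vgll2, all higher with overexpression, and Igfbp3 and F3, both lower. The core kinases and adaptors were not among them. For each list below, the share to set beside its calls is the 3.72% of all tested genes. Counts at an unadjusted p under 0.05 have no such share here, because it was not taken over all tested genes.

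**Figure D4:**
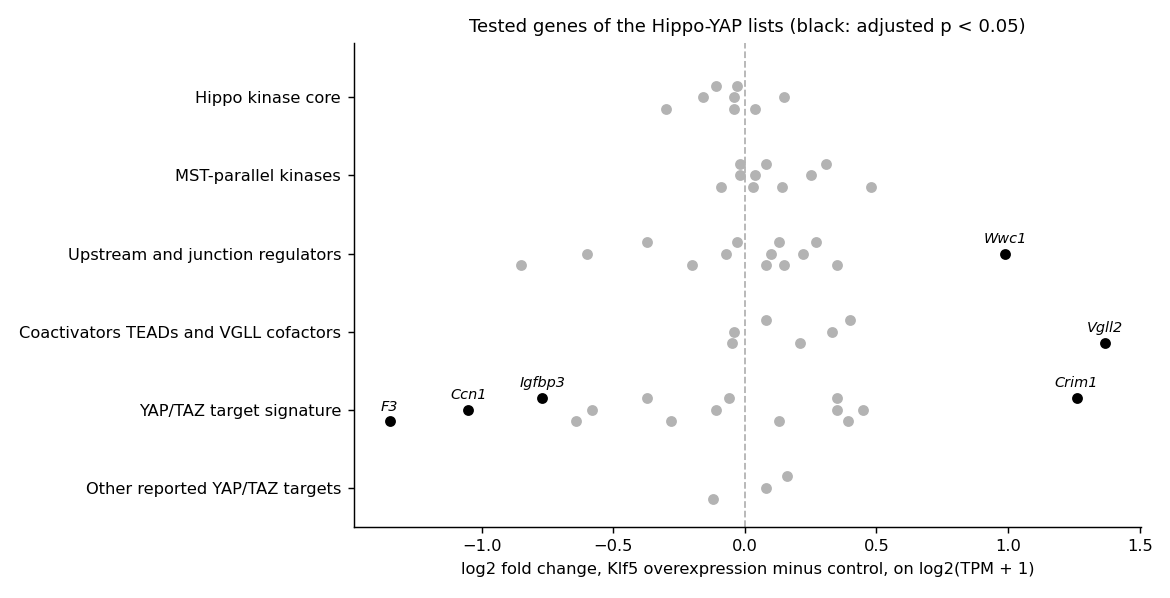
Log2 fold change (Klf5 overexpression minus control, log2(TPM + 1) scale) of the tested genes of 6 Hippo-YAP lists; each point is a gene, and black points with names have a limma adjusted p under 0.05. The kinase core lies close to 0, and the named points lie at the edges of the regulator, cofactor and target lists.

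In the Hippo kinase core, all 8 genes were tested and 0 passed in limma, with 0 at an unadjusted p under 0.05 and a median log2 fold change of -0.04. The 2 with the smallest p were Stk3, the MST2 kinase, at 8.61 TPM with overexpression against 10.5 TPM in controls (limma adjusted p = 0.636), and Nf2, the merlin tumour suppressor, at 42.5 TPM with overexpression against 47.5 TPM in controls (limma adjusted p = 0.674). Of 10 kinases that act beside MST1 and MST2, 0 passed and 1 had an unadjusted p under 0.05. This was Mink1, with 17.9 TPM with overexpression against 12.9 TPM in controls (limma adjusted p = 0.387), followed by Map4k3 with 31.8 TPM with overexpression against 25.4 TPM in controls (limma adjusted p = 0.5).

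Wwc1 (ENSMUSG00000018849, chromosome 11, 35838400 to 35980527, minus strand) was the 1 of 14 tested upstream and junctional regulators that passed. It encodes KIBRA, a scaffold that works with merlin to activate the LATS kinases. Wwc1 stood at 136, 93.6, 105, 125 and 77.1 TPM with overexpression and at 47.9, 56.0, 60.8, 46.8, 45.8 and 59.3 TPM in controls. All overexpression libraries lay above all controls, and the ratio of means was 2.03. Wwc1 changed by 0.99 ± 0.15 (SE) in log2 (95% interval 0.68 to 1.30, limma adjusted p = 0.000689), and the call held in all 22 other fits. Of the 14 regulators, 4 had an unadjusted p under 0.05 in limma, Wwc1 among them. Fat4, an atypical cadherin upstream of the pathway in some mammalian tissues, was singled out after its values were seen, as the 1 gene without overlap that did not pass: it had 1.13 to 2.74 TPM with overexpression and 2.90 to 6.32 TPM in controls, with a limma adjusted p of 0.0555.

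Of 7 tested coactivator, TEAD and VGLL genes 1 rose, Vgll2 (ENSMUSG00000049641, chromosome 10, 52022502 to 52028471, plus strand), a TEAD cofactor known from skeletal muscle. It reached 1 TPM in all overexpression libraries but in only 2 controls, so it was tested only because of the group in which it is high, and its call is no support for the list. It was at 1.59, 5.37, 1.71, 6.50 and 2.16 TPM with overexpression and at 1.32, 0.702, 0, 1.13, 0.200 and 0.437 TPM in controls. The groups did not overlap, but 3 of the 5 overexpression libraries were close to the highest controls. In log2 it changed by 1.37 ± 0.33 (SE; limma adjusted p = 0.029). Left-out libraries gave adjusted p of 0.0229 to 0.0915, and the call was lost without overexpression library 2 or 4 (0.0915 and 0.0913) and without control library 3, 5 or 6 (0.0695, 0.0659 and 0.0585). It was also lost with a pseudocount of 0.1 (0.0593) and without a filter on low values (0.118).

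The published YAP/TAZ target signature moved in no single direction. Of its 22 genes 15 were tested, of which 1 rose and 3 fell, against 2.29% higher and 1.43% lower of all tested genes. There were 6 above 0 and 9 below 0, with a median log2 fold change of -0.11. At an unadjusted p under 0.05 in limma there were 6 of the 15. Ccn1 was 1 of the 3 that fell. Ankrd1, another common readout gene, was at 0 in all 11 libraries, and 6 more signature genes, Ccn2 among them, were too low to test.

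Crim1 (ENSMUSG00000024074, chromosome 17, 78200248 to 78376592, plus strand) encodes a transmembrane protein that binds bone morphogenetic proteins. It stood at 29.6, 43.0, 31.9, 29.0 and 20.3 TPM with overexpression and at 10.8, 13.8, 14.1, 9.35, 10.5 and 14.0 TPM in controls. Again all overexpression libraries lay above all controls, with a ratio of means of 2.54, and a log2 change of 1.26 ± 0.18 (SE; limma adjusted p = 0.000495). The call held in all 22 other fits. Crim1 overlaps Fez2 on the opposite strand, which reached 23.4 TPM. The window at its start, chr17:78199998-78200297 (plus strand, GRCm38.p6), is shown because it held the TEAD core, in capitals at position -79, and 6 matches to CCCCNCCC on the opposite strand, the last of which share bases with it.
Crim1: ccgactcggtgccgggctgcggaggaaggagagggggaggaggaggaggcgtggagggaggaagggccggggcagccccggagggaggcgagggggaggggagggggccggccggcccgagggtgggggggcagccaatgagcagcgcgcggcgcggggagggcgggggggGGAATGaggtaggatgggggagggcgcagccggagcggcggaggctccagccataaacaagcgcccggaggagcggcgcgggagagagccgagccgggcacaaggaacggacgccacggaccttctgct

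Igfbp3 (ENSMUSG00000020427, chromosome 11, 7206086 to 7213923, minus strand), a secreted carrier of insulin-like growth factors, fell. Its level was 149, 109, 123, 150 and 120 TPM with overexpression and 274, 286, 212, 167, 160 and 263 TPM in controls. The groups did not overlap, although control libraries 4 and 5 came near the highest overexpression libraries. Its log2 change was -0.77 ± 0.16 (SE; limma adjusted p = 0.0125), and without a filter on low values the adjusted p was 0.0695.

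F3 (ENSMUSG00000028128, chromosome 3, 121723537 to 121735048, plus strand), the tissue factor that starts blood clotting and is made by astrocytes in brain, also fell. It stood at 0.446, 2.14, 1.72, 1.96 and 4.34 TPM with overexpression and at 8.11, 6.38, 6.99, 6.13, 3.49 and 7.92 TPM in controls. Overexpression library 5 lay above control library 5, and all others were separate. F3 changed by -1.35 ± 0.29 in log2 (SE; limma adjusted p = 0.0129), but at 0.079 it did not pass when low genes were kept in.

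**Figure D5:**
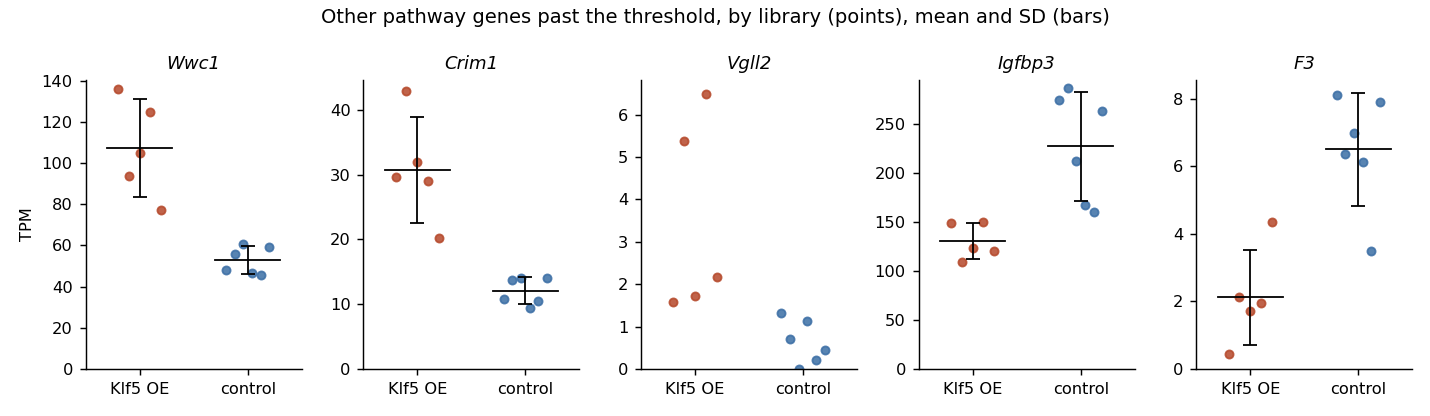
TPM by library of the 5 other pathway genes with an adjusted p under 0.05, with Klf5 overexpression (OE, n = 5) left of control (n = 6); lines are means and bars SDs, left out for Vgll2, which was at 0 in 1 control library. Wwc1 and Crim1 are higher in all overexpression libraries, and Igfbp3 and F3 are lower except for 1 overexpression library in F3.

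Among 8 other reported YAP and TAZ targets, 3 were abundant and 5 were below the level for testing. Of the 3 tested, 0 passed in limma, with 0 at an unadjusted p under 0.05. Myc, a growth-promoting transcription factor, had 93.0 ± 12.4 TPM in overexpression libraries (SD, n = 5), against 83.0 ± 11.1 TPM in control libraries (SD, n = 6; limma adjusted p = 0.718). Birc5, the mitotic gene survivin, had 67.2 TPM with overexpression and 71.2 TPM in controls (limma adjusted p = 0.898). Ccnd1, which encodes the cell cycle regulator cyclin D1, had 387 ± 60.8 TPM in overexpression libraries (SD, n = 5) and 370 ± 78.2 TPM in control libraries (SD, n = 6; limma adjusted p = 0.932). Ereg and Edn1 were at 0 in all 11 libraries, and Areg and Thbs1 did not exceed 0.353 TPM with overexpression or 0.492 TPM in controls.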

How the data were processed

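Total RNA of neurospheres from 11 embryos was made into 11 libraries, with NEBNext Ultra Directional and KAPA HTP kits per the labels' protocol; which kit served which step or library is not given. The deposited values are TPM, made by the authors; HISAT2, StringTie, HTSeq, DESeq2 and the build GRCm38.p5 are listed, per the submitters' processing notes, without versions, order or roles. TPM depends on the library's total, so a change in a few abundant transcripts moves all others, and precision comes from the spread between libraries.

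Rows were matched to symbols for 53255 of 53453 genes; coordinates are from GENCODE M21 (GRCm38) and promoters from RefSeq (GRCm38.p6). Genes reaching 1 TPM in 5 or more libraries were tested as log2(TPM + 1) with limma 3.58.1 (R 4.3.3), variance trend, two-sided, no covariate, adjusted over all genes at 0.05. The procedure was tested on simulated data. Untested genes and correlations used exact permutation (Python 3.11.15, scipy 1.17.1). Fold changes on this scale understate changes of low genes. Alternatives were scalings, pseudocount, filters, variance models, a replicate block, a covariate for embryo sex, and each library left out. Embryo sex was not taken from labels but read from Xist against the summed level of Y-linked genes. Named genes are the members, Klf5, pathway genes past the threshold, the 2 smallest p of lists with none, and listed genes too low to test, given by range; Fat4, Ccnd1 and the markers were named beyond this rule, after their values were seen. Members and lists were chosen with earlier results of these data known.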

Additional observations from a re-analysis of the deposited data

Results flagged for a closer look

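Ajuba in control library 6 stood at 13.0 TPM, apart from the other 5 control libraries, whose highest value was 11.0 TPM. It was the 1 of 42 gene and group sets in which a single library stood this far from the rest, and chance flags about 1 in 20 such sets. Without that library Ajuba did not pass the test either.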

How the results depend on the processing

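The Ccn1 call held in all 11 fits with a library left out and in the 10 others in which it was tested, with adjusted p of 0.00141 to 0.0197; Wwc1 and Crim1 held in all 22. The 8 other tested members passed in none. The number of members called was 2 without a filter on low values (Ccn1 and Ccn2) and 0 with a filter of 5 TPM, which removes Ccn1. Of 5 other pathway genes called, Vgll2, Igfbp3 and F3 were lost without a filter, where more genes are tested and Tead4 was called, giving 3. The count was 7 with trimmed-mean scaling, with quantile normalization and without ribosomal RNA-like rows, and 4 to 6 in the remaining fits. Among all tested genes 504 were called, with 729, 732 and 760 under those 3 settings, 349 without a filter, 380 with a filter of 5 TPM, and 386 to 496 with a library left out; the cause was not tested. Signs near 0 turned: Yap1 was 0.001 with trimmed-mean scaling, 0.011 with quantile normalization and -0.136 to 0.087 with libraries left out. Tead3 was 0.096 and Birc5 0.070 with array weights. With libraries left out, Tead3 was -0.204 to 0.125, Birc5 -0.228 to 0.029 and Wwtr1 -0.038 to 0.190. Same-numbered libraries share only a number (r of their deviations -0.04 to 0.304, the best match for 1 of 5). The replicate block, on 10 libraries, gave 420 genes and ended only the F3 call (adjusted p = 0.0775) among the members and other pathway genes. Calls of the cell type markers were not followed under other settings. Depth is unknown, which limits statements on genes under 1 TPM such as Ccn2.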
